A study of Mus musculus with 13 samples.

Results

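A set of 10 genes was described: the immediate early genes Fos, Fosb, Jun, Junb, Egr1, Atf3, Ier2 and Nr4a1, and the heat shock genes Hspa1a and Hspa1b. They were taken by mouse symbol from the bulk RNA-seq count table of CD45- thymic stromal cells, which lists 53379 genes, and all 10 were among the 19984 genes left by the filter on low counts. The mice were wild type C57BL/6 animals, 2 months old. There were 4 libraries from mice at steady state, and 3 each from mice 1, 4 or 7 days after sublethal total body irradiation (TBI). The labels call the steady-state mice untreated, whereas the columns of the table name them as PBS controls of day 1 (replicate 2), day 4 (replicate 2) and day 7 (replicates 1 and 2), and they are named here by their column. In all groups the thymus was cut up, digested with enzymes, depleted of CD45+ cells and sorted before RNA was taken. The labels do not say whether the libraries of a group came from separate mice, while the study's methods treat each bulk library as a biological replicate. The p-values measure the spread between these libraries.

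Immediate early genes are transcribed within minutes of a stimulus, without new protein synthesis, when MAP kinase signalling activates transcription factors that already sit on their promoters. Most of their products are transcription factors themselves: FOS and FOSB pair with JUN and JUNB to form AP-1, EGR1 is a zinc finger activator, ATF3 a stress-induced member of the ATF/CREB family and NR4A1 an orphan nuclear receptor induced by antigen receptor signals in thymocytes. Hspa1a and Hspa1b encode the inducible HSP70 chaperone and are switched on by HSF1 when proteins unfold. Both groups also respond to the warming, cutting and enzymatic digestion of a tissue, and are widely used to mark dissociation in cell suspensions.

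RefSeq windows of GRCm38.p6, 250 bases before to 50 after each start site, were held for 8 of the 10 members, all but Egr1 and Ier2. The bases before the start site are shown for 5 of them, because they hold letters that match the elements of HSF1 or EGR1. Binding was not measured. Capitals mark the heat shock element core (GAANNTTC) and the CCAAT box in Hspa1a and Hspa1b, the heat shock element core in Jun, and an EGR site (GCGGGGGCG) in Fosb and Nr4a1, each searched on both strands. The windows are Hspa1a at chr17:34972197-34972286 (minus strand), Hspa1b at chr17:34959279-34959368 (minus), Jun at chr4:95052313-95052372 (minus), Fosb at chr7:19310056-19310115 (minus) and Nr4a1 at chr15:101266766-101266825 (plus).
Hspa1a: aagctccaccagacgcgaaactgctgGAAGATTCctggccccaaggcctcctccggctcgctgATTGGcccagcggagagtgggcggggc
Hspa1b: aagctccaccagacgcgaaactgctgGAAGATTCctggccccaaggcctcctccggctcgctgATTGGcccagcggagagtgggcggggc
Jun: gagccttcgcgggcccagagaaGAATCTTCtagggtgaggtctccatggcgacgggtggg
Fosb: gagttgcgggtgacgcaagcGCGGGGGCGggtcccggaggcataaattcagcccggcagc
Nr4a1: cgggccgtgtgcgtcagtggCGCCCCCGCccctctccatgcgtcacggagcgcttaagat

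The heat shock element core was present in 3 of the 8 windows, against 7.86% of all 32851 windows. The EGR site was present in 2 of the 8, against 2.91%. A CCAAT box was found in 5 (Hspa1a, Hspa1b, Jun, Junb and Atf3), against 37.41%, and the letters TATAA in 2 (Fos and Junb), against 24.87%. No member window held the cAMP response element TGACGTCA, the AP-1 site TGANTCA or the CArG box of the serum response element, which says only that these letters were not in these windows. Over the 250 bases before the start site, Hspa1a and Hspa1b had the same base at 247 positions, or 98.8%, so their matches are not separate finds.

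Their transcripts were also alike, since 1350 of the 2868 stretches of 100 bases in the Hspa1a transcript (47.1%) recurred in that of Hspa1b. The reads were counted with settings that leave out reads aligning to several places, so the level of either copy is uncertain. Both lie on chromosome 17 with a single exon, Hspa1a (ENSMUSG00000091971) from 34969190 to 34972156 and Hspa1b (ENSMUSG00000090877) from 34956436 to 34959238, minus strand. Jun (ENSMUSG00000052684, chromosome 4, 95049034 to 95052222, minus strand) and Ier2 (ENSMUSG00000053560, chromosome 8, 84661331 to 84662852, minus strand) have a single exon as well. Fos (ENSMUSG00000021250) lies on chromosome 12 from 85473890 to 85477273 on the plus strand with 4 exons, and Fosb (ENSMUSG00000003545) on chromosome 7 from 19302696 to 19310051 on the minus strand with 5. These exon numbers are those of the transcript model with the most exons. Reads over bases that a gene shares with another gene were left out too, which touched 232 of the 3189 exonic bases of Jun (shared with Junos), 173 of 2301 in Junb (with Prdx2) and 564 of 2967 in Hspa1a (with Gm20481).

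The libraries held between 15721866 and 52056896 counts, and the lowest count of a member in any library was 407, for Fosb. Levels are given as CPM, counts scaled to the normalized library size. The summed levels of 8 TEC markers (538 to 2841 CPM), 8 endothelial markers (819 to 1313) and 8 fibroblast markers (18676 to 147790) gave the level of the labelled cells in the 13 libraries, and no marker on these lists was at 0 in every library of a group. Thymocyte markers (14 genes) summed to 258 to 822 CPM at steady state, 127 to 164 at day 1, 32.4 to 53.4 at day 4 and 239 to 5353 at day 7. Each column name ends in a tag that the paper does not explain. By its start the libraries fell into those with k3, those with kk and those with neither, and all 3 libraries of day 7, and no other, carry the letters m0, so that this tag and day 7 cannot be told apart.

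Per kilobase of exonic length, Fos was the highest member at steady state, with 614 ± 319 CPM per kb (mean ± SD, n = 4), rank 43 of all genes tested. Jun (399 ± 256), Junb (317 ± 204), Egr1 (246 ± 171) and Ier2 (227 ± 98.6) came next, each within 1 SD of its neighbours in this order. Hspa1b (65.3 ± 36.5) and Hspa1a (52.2 ± 28.6) followed, and their highest libraries (111 and 92.4 CPM per kb) lay below the lowest Ier2 library (167). Atf3 (39.7 ± 29.1), Nr4a1 (34.6 ± 16.8) and Fosb (10.5 ± 11.9) were the lowest, and the ranges of Atf3 and Nr4a1 overlapped. The order at steady state thus held a group of 5 abundant immediate early genes and a group of 5 less abundant genes that included the chaperones. The 8 immediate early genes together took 0.295% to 1.09% of all counts at steady state, 0.184% to 0.470% at day 1, 0.250% to 0.615% at day 4 and 0.196% to 0.245% at day 7.

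**Figure D1:**
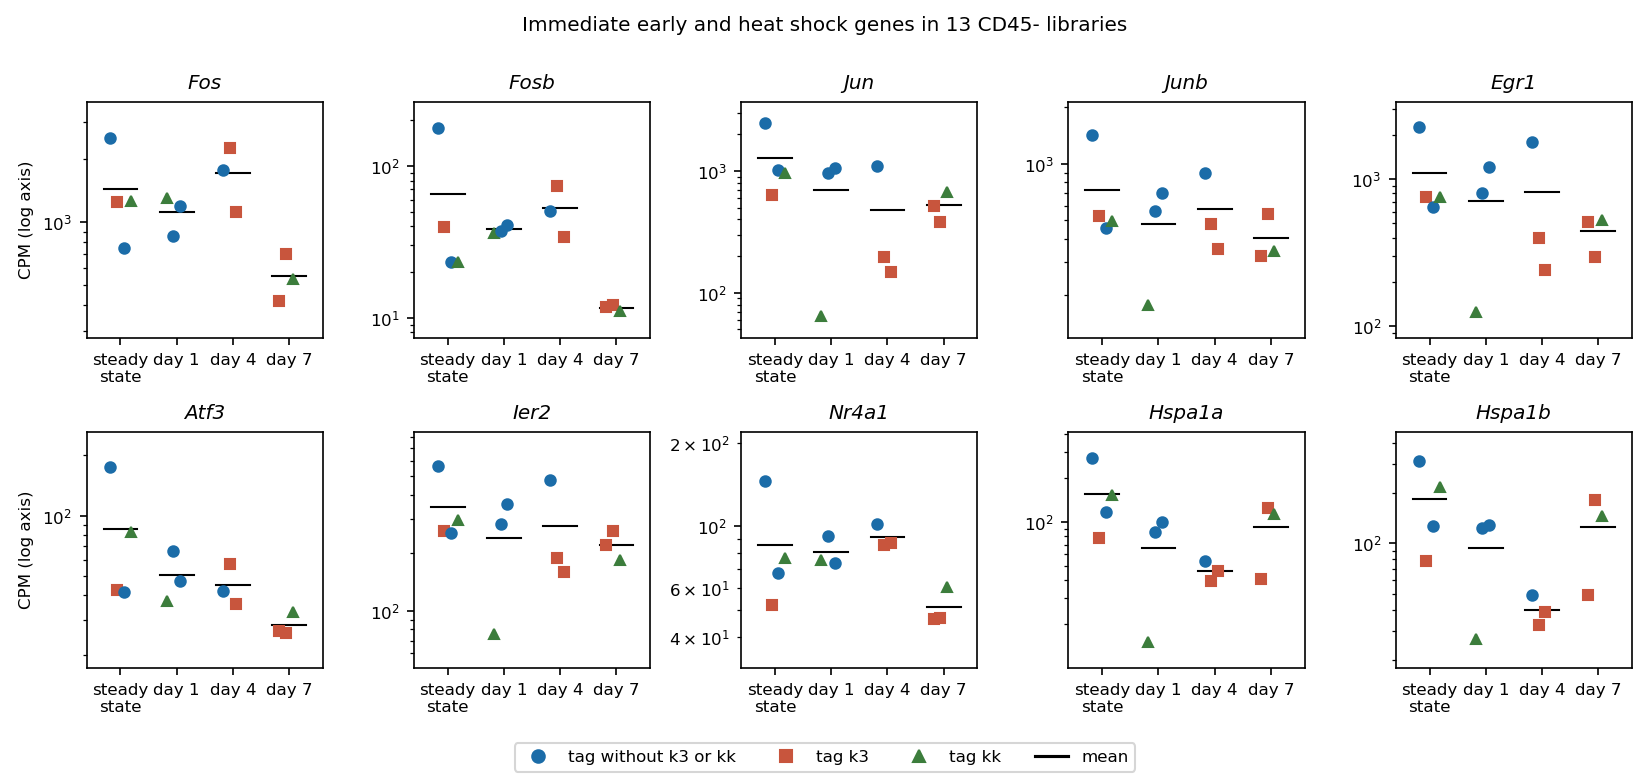
Levels of the 10 genes in each library (points; vertical log axis, CPM) by condition, steady state or day after TBI; horizontal lines are means and marker shapes give the start of the tag in the column name. PBS day 1 replicate 2 was the highest library of all 10 genes, and the 3 day 7 libraries of Fos, Fosb and Atf3 lay below all others.

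Day 7 was compared with steady state to ask whether these genes had returned to their level before TBI. Fos, the AP-1 subunit, had 2513, 1246, 752 and 1266 CPM in the steady-state libraries (PBS day 1 replicate 2, PBS day 4 replicate 2, and PBS day 7 replicates 1 and 2). At day 7 it had 419, 703 and 532 CPM in replicates 1 to 3. The day 7 libraries lay below every steady-state library. Fosb, its paralog, had 177, 39.3, 23.2 and 23.2 CPM at steady state and 11.7, 12.2 and 11.04 at day 7. The 3 day 7 libraries of Fosb were within 1.10 times of each other, while the steady-state libraries spanned 7.61 times. Atf3 had 175, 42.6, 41.2 and 83.2 CPM at steady state and 26.6, 25.8 and 33.0 at day 7, again without overlap. Egr1 had 2250, 760, 647 and 758 CPM at steady state and 512, 296 and 527 at day 7, and did not overlap either.

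None of these differences passed the threshold, an adjusted p-value of 0.05 or less in edgeR's quasi-likelihood test over all 19984 genes. The log2 fold changes at day 7 were -1.39 ± 0.48 (SE) for Fos (adjusted p = 0.136 in edgeR), -2.50 ± 0.81 for Fosb (0.124), -1.59 ± 0.55 for Atf3 (0.136) and -1.31 ± 0.83 for Egr1 (0.547). Nr4a1 (-0.74 ± 0.34, adjusted p = 0.283 in edgeR) overlapped, with 146, 52.1, 67.6 and 76.6 CPM at steady state and 46.2, 46.7 and 60.6 at day 7. In this comparison 0.005% of all genes were called and 4.67% were lower without overlap, whereas 4 of the 10 members were lower without overlap. Fos, Fosb, Atf3 and Nr4a1 were the 4 members with an unadjusted p under 0.05, as were 2691 of the 19984 genes. With DESeq2, Fos, Fosb and Atf3 passed the threshold (adjusted p = 0.0188, 0.00391 and 0.0228), and they did so in edgeR without the filter on low counts (0.0481, 0.0170 and 0.0397). In this comparison DESeq2 called 1093 of 37877 genes, and edgeR without the filter 627 of 37877.

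PBS day 1 replicate 2 carried much of the size of the difference. Without it the log2 fold changes at day 7 were -1.001 for Fos, -1.31 for Fosb, -0.98 for Atf3 and -0.70 for Egr1, and all 10 members remained below 0. Within tag k3 the single steady-state library had 1246 CPM of Fos and the 2 day 7 libraries 419 and 703, and within tag kk 1266 CPM at steady state stood against 532 at day 7. Fosb ran from 39.3 to 11.7 and 12.2 CPM within k3, and from 23.2 to 11.04 within kk. Both were thus lower at day 7 within each tag family that held both conditions. Thymocyte marker sums at day 7 were 239, 5353 and 2325 CPM in replicates 1 to 3. Replicate 1, whose sum was below the steady-state range, had the lowest Fos of day 7. The lowest Fosb of day 7 was in replicate 3, and the lowest Atf3 and Egr1 were in replicate 2. With the mean thymocyte marker level as a covariate, the log2 fold changes were -1.64 for Fos, -2.61 for Fosb, -1.65 for Atf3 and -1.08 for Egr1. Their adjusted p-values in edgeR were 0.152, 0.149, 0.219 and 0.800. No day 7 sum lay within the steady-state range of 258 to 822 CPM, so this covariate cannot cleanly separate thymocyte RNA from the day. The part of thymocyte RNA in these differences was not tested. Because these are bulk samples, fewer cells of a type and less RNA per cell cannot be told apart.

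The other members at day 7 overlapped steady state. Jun had 2473, 639, 1009 and 967 CPM at steady state and 520, 381 and 673 at day 7 (log2 fold change -1.28 ± 0.90, adjusted p = 0.620 in edgeR). Junb had 1432, 530, 456 and 499 CPM against 322, 540 and 345 (-0.86 ± 0.56, adjusted p = 0.560 in edgeR), and Ier2, a small nuclear regulator, 568, 261, 254 and 296 against 219, 261 and 183 (-0.64 ± 0.53, adjusted p = 0.708 in edgeR). For Jun 2 of the 3 day 7 libraries lay below the lowest steady-state library. The intervals of these 3 differences, from -3.05 to 0.49 for the widest (Jun), include both 0 and a fall of several fold.

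**Figure D2:**
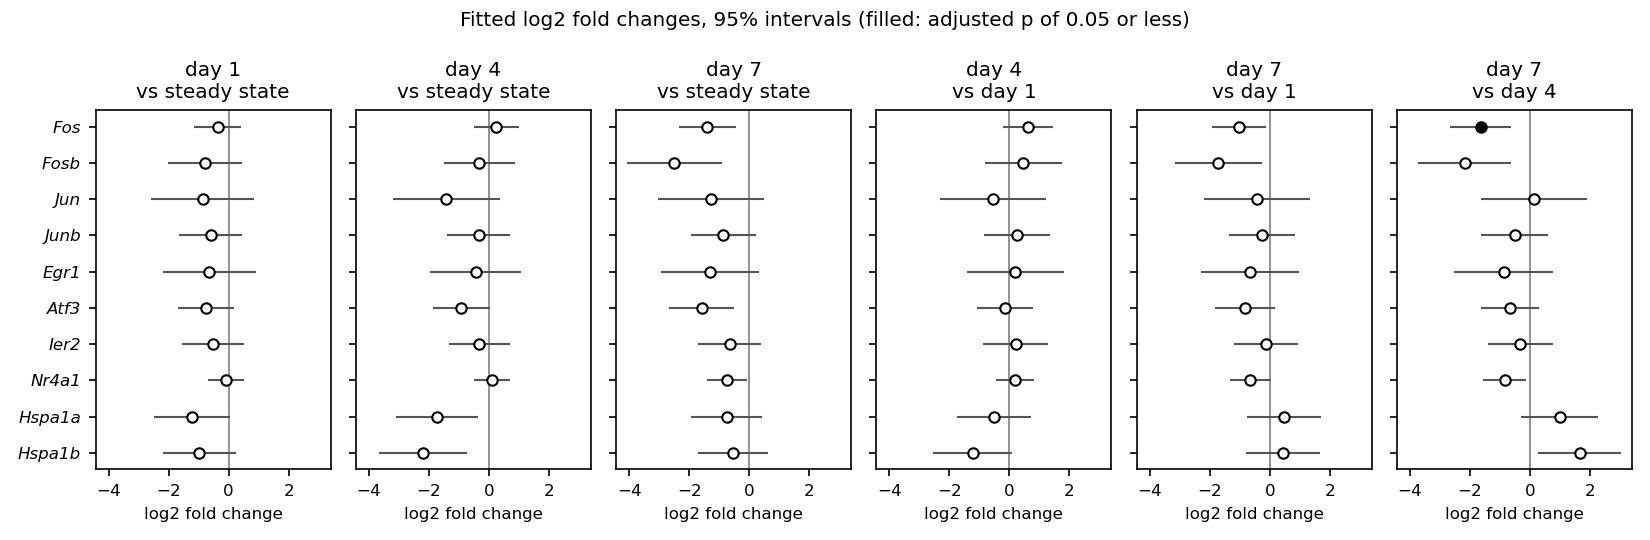
Log2 fold changes of the 10 genes in 6 comparisons (horizontal axis) with approximate 95% intervals from the standard errors; filled points have an adjusted p of 0.05 or less. Fos between days 7 and 4 is the only filled point.

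Between time points after TBI, Fos was the only member called in edgeR with all 13 libraries in the fit and the filter on low counts. It had 1308, 860 and 1199 CPM at day 1 and 1779, 2260 and 1119 at day 4, before the 419, 703 and 532 of day 7. From day 4 to day 7 it fell by 1.64 ± 0.52 on the log2 scale (adjusted p = 0.0455 in edgeR), in a comparison in which 3.9% of all genes were called. The call was close to the threshold and was lost in 14 of 21 alternatives (adjusted p 0.00186 to 0.385), including 9 of the 13 fits without 1 library: any library of day 4 or day 7, replicate 2 or 3 of day 1, or PBS day 7 replicate 2. With only the libraries of the 2 days in the fit, Fos missed the threshold (adjusted p = 0.0503 in edgeR) and Fosb passed it (0.0324), as Fosb did in the like fit of day 7 against day 1 (0.0156). DESeq2 called both Fos and Fosb from day 4 to day 7, among 1908 of 37877 genes. Without day 4 replicate 2, its highest library, the adjusted p of Fos was 0.182 in edgeR. Within tag k3, Fos had 2260 and 1119 CPM at day 4 and 419 and 703 at day 7. Markers of other cells moved with this fall. All 14 thymocyte markers were called higher in edgeR at day 7 than at day 4, and their sum went from 32.4 to 53.4 CPM at day 4 up to 239 to 5353 CPM at day 7. The sum of the 8 TEC markers went from 2068 to 2841 CPM at day 4 down to 538 to 969 CPM at day 7, and Krt5, a keratin of medullary TECs, was called lower (log2 fold change -2.61 ± 0.67, adjusted p = 0.0135 in edgeR). With the mean thymocyte marker level as a covariate, the log2 fold change of Fos was -2.35 (adjusted p = 0.385 in edgeR). The thymocyte sums did not overlap between the 2 days, so this covariate cannot separate thymocyte RNA from the day. The part of TEC RNA in the result was not tested.

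Fosb, Atf3 and Nr4a1 also lay lower at day 7 than in every library of day 4 and of day 1, without a call in edgeR with all libraries and the filter. Fosb had 36.2, 37.4 and 40.9 CPM at day 1 and 50.3, 74.0 and 33.9 at day 4. Its log2 fold change at day 7 was -2.18 ± 0.79 against day 4 (adjusted p = 0.0879 in edgeR) and -1.71 ± 0.74 against day 1 (0.126). Against day 4, Fosb passed the threshold with DESeq2 (adjusted p = 0.00981, with 1908 of 37877 genes called) and in edgeR without the filter (0.0190, with 1265). PBS day 1 replicate 2 is in neither condition but enters the estimate of spread. Without it, the adjusted p-values of Fosb in edgeR were 0.00833 against day 4 and 0.00536 against day 1. Nr4a1 was then called as well at day 7 against day 4 (-0.94, adjusted p = 0.0267 in edgeR). Atf3 had 37.4, 66.5 and 47.3 CPM at day 1 and 42.1, 57.2 and 36.1 at day 4, and its log2 fold change at day 7 was -0.82 ± 0.50 against day 1 and -0.67 ± 0.49 against day 4. Nr4a1 had 75.7, 92.5 and 73.5 CPM at day 1 and 102, 85.6 and 87.2 at day 4, with log2 fold changes of -0.66 ± 0.35 and -0.84 ± 0.36. With Fos these were 4 of 10 members lower without overlap in each comparison, against 14.8% of all genes from day 1 to day 7 and 14% from day 4 to day 7. Both comparisons share the day 7 libraries. At day 7 against day 1 none of the 10 members was called in edgeR, where 8.13% of all genes were. Fos (-1.03 ± 0.46, adjusted p = 0.144 in edgeR) and Fosb had an unadjusted p under 0.05 there. DESeq2 called 1 member, Fosb (adjusted p = 0.0499), among 2912 of 37877 genes.

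At days 1 and 4 none of the 8 immediate early members was called against steady state in edgeR. This does not show equal levels, as the interval of Jun at day 4 ran from -3.21 to 0.38. At day 1 all 8 had a log2 fold change below 0 (median -0.62, with a median of -0.10 over all genes tested), none had an unadjusted p under 0.05, DESeq2 called 0 as well, and 2.35% of all genes were called. Without PBS day 1 replicate 2 only 6 of the 10 members stayed below 0, and Fos (0.09), Fosb (0.46), Egr1 (0.01) and Nr4a1 (0.35) had log2 fold changes above 0. At day 4 the 8 ran from -1.41 (Jun) to 0.25 (Fos), none had an unadjusted p under 0.05, DESeq2 called 0 of the 8, and 0.29% of all genes were called. Between days 1 and 4 no member was called or free of overlap, none had an unadjusted p under 0.05, and DESeq2 called 0, while 1.43% of all genes were called.

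The heat shock genes had their lowest group mean at day 4, as did Jun (478 CPM, against 525 at day 7). Hspa1a had 274, 78.2, 116 and 152 CPM at steady state and 53.9, 39.4 and 46.3 at day 4. Hspa1b had 310, 78.4, 126 and 218 CPM at steady state and 49.3, 32.2 and 38.6 at day 4. Both genes were lower in every day 4 library than in every steady-state library, while 8.22% of all genes were lower without overlap. The log2 fold changes were -1.74 ± 0.69 for Hspa1a (adjusted p = 0.268 in edgeR) and -2.19 ± 0.75 for Hspa1b (0.176). Neither passed the threshold in edgeR with the filter, although both had an unadjusted p under 0.05. Hspa1b passed it with DESeq2 (adjusted p = 0.0143, with 620 of 37877 genes called) and in edgeR without the filter (0.0330, with 250). Without PBS day 1 replicate 2 the log2 fold changes were -1.22 and -1.72.

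At day 7 the chaperones were back within the steady-state range in 2 of 3 libraries. Hspa1a had 40.6, 124 and 113 CPM and Hspa1b 48.9, 181 and 147, with replicate 1 low for both. At day 1 replicate 1 was low instead, with 15.04 CPM of Hspa1a against 85.03 and 100.1 in the others, and 26.8 CPM of Hspa1b against 124 and 129. Thymocyte marker sums moved with these levels, at 32.4 to 53.4 CPM in the day 4 libraries and 239 CPM in day 7 replicate 1 against 2325 and 5353 in the others, but day 1 replicate 1 had the highest sum of day 1 (164, against 144 and 127). With the mean thymocyte marker level as a covariate, the day 4 log2 fold changes were -0.44 for Hspa1a and -0.80 for Hspa1b (adjusted p = 0.864 and 0.719 in edgeR), and from day 4 to day 7 they turned from 0.99 and 1.65 to -1.06 and -0.62. The thymocyte sums of day 4 overlapped neither those of steady state nor those of day 7. This covariate therefore cannot separate thymocyte RNA from the condition, and the part of thymocyte RNA in these levels was not tested.

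The ratio of the copies stood apart at day 4. Hspa1a had 1.09, 1.23 and 1.199 times the count of Hspa1b in the day 4 libraries, and 0.56 to 0.997 times in the other 10. The 3 day 4 libraries were thus the only ones with more counts of Hspa1a. These ratios rest on the reads that fell in parts where the copies differ.

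**Figure D3:**
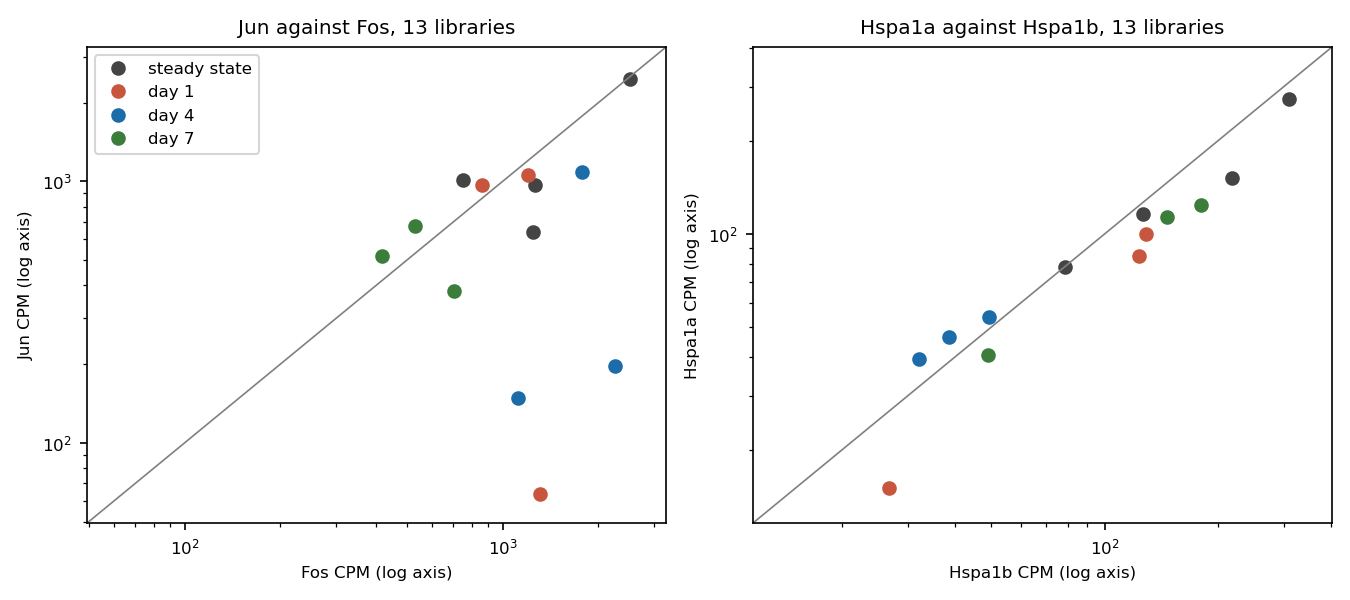
Left, Jun against Fos, and right, Hspa1a against Hspa1b, in each of 13 libraries (both axes CPM, log scale; colours give the condition and the grey line equal levels). Day 1 replicate 1 and day 4 replicates 2 and 3 lie far below the line for Jun, while the heat shock copies stay near it.

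Libraries of one condition differed in these genes more than in most. The SD within conditions of log2(CPM + 0.5), over 9 degrees of freedom, was 1.40 for Jun, above 99.5% of the 9837 genes that averaged at least 10 CPM, and 1.21 for Egr1 (98.1%). It was 0.93 for Hspa1a and for Hspa1b (92.5% and 92.4%), 0.84 for Fosb (89.2%), 0.78 for Ier2, 0.77 for Junb and 0.62 for Atf3. Fos (0.53) and Nr4a1 (0.39, 55.9%) were the steadiest. All 10 lay above the median of these genes, 0.36.

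**Figure D4:**
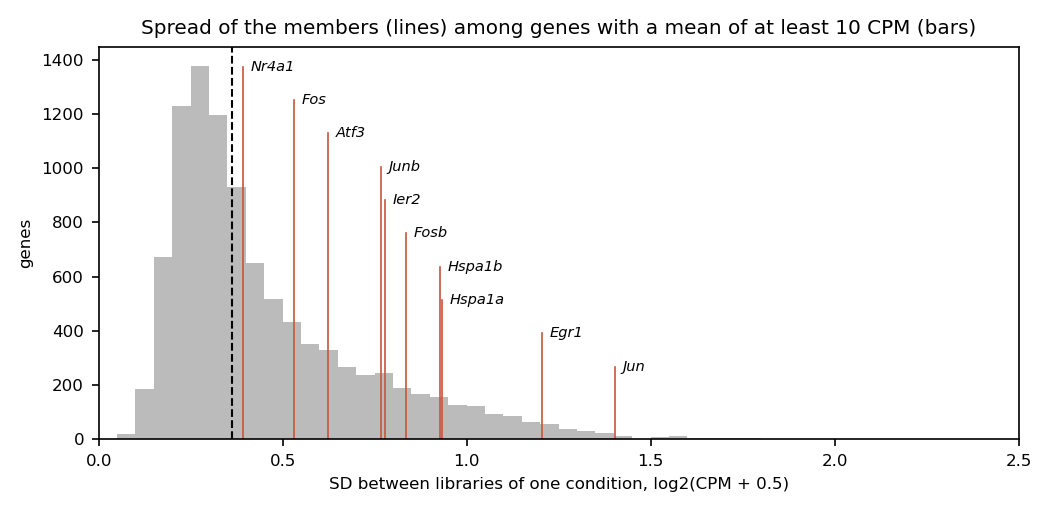
Distribution of the SD between libraries of one condition (horizontal axis, log2(CPM + 0.5)) over genes averaging 10 CPM or more (bars, number of genes), with its median (dashed) and the 10 members (lines). Jun and Egr1 stand at the upper end.

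A pair of libraries stood at the ends of the range for most members. PBS day 1 replicate 2 had the highest value of all 10 members, between 0.80 (Ier2) and 1.99 (Fosb) above the mean of steady state on the log2 scale. This library also had the highest share of mitochondrial counts, 3.94%, against 0.739% to 2.60% in the others, and the lowest fibroblast marker sum (18676 CPM). Day 1 replicate 1 was the lowest of the 13 for 6 members. It had 64.0 CPM of Jun against 966 and 1060 in the other day 1 libraries, 125 of Egr1 against 800 and 1203, 75.4 of Ier2 against 284 and 359, and 178 of Junb against 564 and 703, besides the low heat shock genes. In the same library Fos (1308 CPM) was the highest of day 1, Fosb (36.2) was little below the other day 1 libraries (37.4 and 40.9), and Nr4a1 (75.7) lay between them. Its counts (36597367) and mitochondrial share (1.63%) lay within the range of the other libraries, and its neutrophil marker sum (48.0 CPM) was the highest of the 13.

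Day 4 split in a like way. Jun had 1089 CPM in replicate 1 and 197 and 148 in replicates 2 and 3, Egr1 1802 against 400.0 and 243, Ier2 481 against 188 and 158, and Junb 891 against 482 and 352. Fos did not follow, with its highest value of day 4 (2260 CPM) in replicate 2. Counts of Jun were 0.0489, 0.0871 and 0.133 times those of Fos in day 1 replicate 1 and day 4 replicates 2 and 3, and 0.513 to 1.34 times in the other 10 libraries. Counts of Egr1 were 0.0955, 0.177 and 0.217 times those of Fos in the same 3 libraries, and 0.422 to 1.22 in the others. Among the immediate early members, Jun, Egr1, Ier2 and Junb were thus lower in these 3 libraries than in the others of the same day. Fos, Fosb, Atf3 and Nr4a1 were not lower in all 3. Against other conditions the split was less clear. In day 4 replicate 2, Junb (482 CPM) lay above PBS day 7 replicate 1 (456). Egr1 (400.0) lay above day 7 replicate 2 (296) there, and Ier2 (188) above day 7 replicate 3 (183). Day 4 replicates 2 and 3 carry tag k3 and replicate 1 neither tag, and day 1 replicate 1 carries kk where the others carry neither. With the tag as a covariate, Jun turned from -0.41 to 1.75 at day 7 against day 1 (adjusted p = 0.135 in edgeR). Within days 1 and 4 the split in these genes cannot be told apart from the tag. At steady state, counts of Jun were 0.513 (k3) and 0.764 (kk) times those of Fos. At day 7 they were 1.24 and 0.543 (k3) and 1.26 (kk) times those of Fos. The part of the tag in the split was not tested.

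Exons were counted in the transcript model with the most of them. Of the 4 immediate early genes that were lower in these 3 libraries within their day, Jun and Ier2 have 1 exon, Junb 2 and Egr1 3. These 4 were grouped by their levels in the same libraries. Of the other immediate early members Fos has 4, Fosb and Atf3 5 and Nr4a1 8. Hspa1a and Hspa1b also have 1 exon. They deviated from the mean of their condition by -1.72 and -1.48 on the log2 scale in day 1 replicate 1. In day 4 replicates 2 and 3 the deviations were -0.22 and 0.0046 for Hspa1a, and -0.29 and -0.029 for Hspa1b. Over all 405 genes with a single exon, the median deviation of day 1 replicate 1 from the mean of its condition was -0.16 on the log2 scale, and over 15805 genes with more exons 0.07. In day 4 replicates 2 and 3 these medians were -0.10 and -0.02, and -0.08 and -0.01. Jun, the member with the widest spread, deviated by -2.65, -0.69 and -1.09 in the same libraries. A median over many genes cannot be set against 1 such gene. The part of exon number in the members' levels was not tested.

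**Figure D5:**
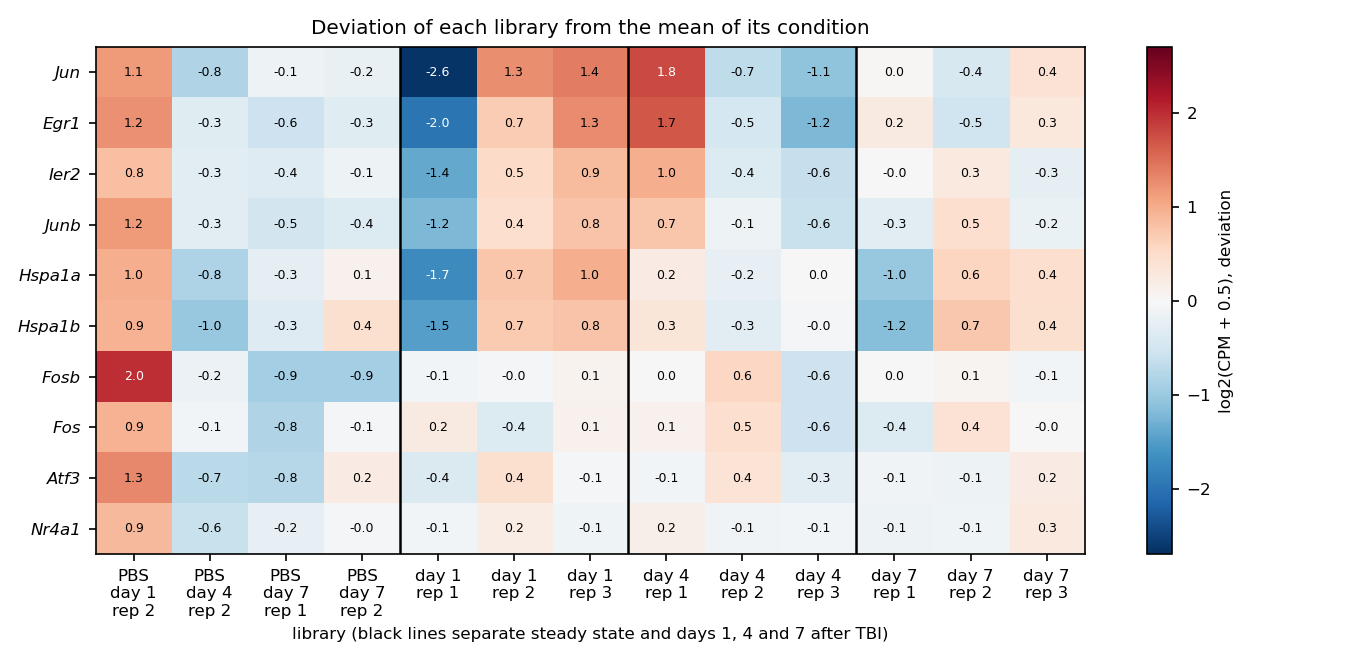
Deviation of each library (columns) from the mean of its condition for each gene (rows), in log2(CPM + 0.5), from blue (below) to red (above). The first column is above 0 for every gene, and day 1 replicate 1 is far below 0 for Jun, Egr1, Ier2, Junb, Hspa1a and Hspa1b and near 0 for Fosb, Fos and Nr4a1.

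Other genes of the response were read from lists of known members. Of 22 further immediate early genes, such as Klf and Ier family members, 21 could be tested. Jund, an AP-1 gene, had 0 or 1 counts in every library. Whether its reads were left out because of bases shared with another gene was not tested, so its level is uncertain. The median log2 fold change of the 21 at day 7 against steady state was -0.34, with 19 of 21 below 0. None was called there in edgeR, 4 had an unadjusted p under 0.05, and DESeq2 called 3, with 1093 of 37877 genes called. Per1, a clock gene, was the only one called in edgeR from day 1 to day 7, where 8.13% of all genes were called. DESeq2 called 3 of the list there, and 2912 of 37877 genes. Per1 fell by 1.55 ± 0.46 (adjusted p = 0.0203 in edgeR), from 24.2, 17.0 and 10.5 CPM to 5.13, 6.15 and 6.37. Sgk1, a serum- and glucocorticoid-induced kinase, was the only one called in edgeR from day 4 to day 7, where 3.9% of all genes were called. DESeq2 called 1 of the list there, and 1908 of 37877 genes. Sgk1 fell by 1.08 ± 0.32 (adjusted p = 0.0317 in edgeR), from 280, 264 and 300.1 CPM to 142, 143 and 115. Of 13 feedback inhibitors (MAP kinase phosphatases, ZFP36 proteins and SOCS3 among them), 12 were below 0 at day 7 against steady state with a median of -0.63, and none was called in any comparison in edgeR. Between 1 and 4 of the 13 had an unadjusted p under 0.05 in each comparison. DESeq2 called 0 to 3, with the most from day 4 to day 7, where it called 1908 of 37877 genes.

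Upstream of the immediate early response, of 18 kinases and promoter-bound factors Creb1, which binds the cAMP response element, was the only one called in any comparison in edgeR, and it rose by 0.79 ± 0.25 from day 1 to day 7 (adjusted p = 0.0325 in edgeR), where 8.13% of all genes were called. DESeq2 called 2 of the 18 at day 1 against steady state, 1 at day 4 against day 1, 1 at day 7 against day 1 and 0 in the other comparisons. Where it called any of the 18, it called 1354, 935 and 2912 of 37877 genes, in that order. Creb1 had 107, 103, 108 and 98.3 CPM at steady state, 73.5, 64.8 and 63.4 at day 1 and 86.0, 148 and 115 at day 7. The rise thus ran from below the steady-state values to values on both sides of them. The median of the 18 at day 7 against steady state was 0.0022, and that of all genes tested 0.0024.

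Of 25 other heat shock genes, 23 were below 0 at day 4 against steady state, with a median of -0.52 where that of all genes was -0.13. Hsph1, a nucleotide exchange factor of HSP70, was the only one called in edgeR, where 0.29% of all genes were called. DESeq2 called 3 of the 25 there, and 620 of 37877 genes. Hsph1 fell by 1.84 ± 0.47 (adjusted p = 0.0345 in edgeR), from 169, 77.6, 78.5 and 108 CPM at steady state to 26.8, 29.4 and 34.5. Its libraries at day 4 all lay below those at steady state. Hspa5 is the HSP70 of the endoplasmic reticulum and a target of the unfolded protein response. It was the only one called in edgeR from day 1 to day 4, where 1.43% of all genes were called. DESeq2 called 6 of the 25 there, and 935 of 37877 genes. Hspa5 fell by 1.74 ± 0.49 (adjusted p = 0.0328 in edgeR). Its level was 1264, 1488, 1916 and 2734.5 CPM at steady state. It was 4827, 2720 and 2351 CPM at day 1 and 1250, 1020 and 685 at day 4. The highest level was in day 1 replicate 1, the library with the lowest Hspa1a and Hspa1b. At day 7 against steady state 15 of the 25 were below 0, with a median of -0.15. None was called there in edgeR or DESeq2, and 3 had an unadjusted p under 0.05.

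The genes whose level followed the mean of the 8 immediate early members most closely over the 13 libraries were read among the 11449 genes that averaged 5 CPM or more. They included Cdc14b (Pearson's r = 0.93), Nfkbiz (0.92), Apold1 (0.91), Socs3 (0.91), C130074G19Rik (0.89), Sik1 (0.88) and Jph1 (0.87). Nfkbiz had a mean of 71.9 CPM at steady state and 19.3 at day 7, and Socs3 316 and 134. The genes most like the mean of the heat shock pair were Mafk (0.96), Ccnl1 (0.94), Nktr (0.94), Kdm6b (0.94), Dnmt3a (0.92), Safb (0.92), Zfp326 (0.92) and Chd3 (0.92). Of the 8 closest genes, 4 for the first mean and 2 for the second were also among the 8 highest by Spearman's rho. All points of these comparisons share a library and its normalization, and PBS day 1 replicate 2 is the highest point of both means.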

How the data were processed

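Bulk RNA-seq of sorted CD45- thymic cells was analysed in 13 libraries. The authors trimmed reads with Trimmomatic 0.38, aligned them with STAR 2.7.0e to GRCm38.p5 and counted them per gene with featureCounts 1.6.3, without strand. The deposited values are whole-number counts, and multi-mapping and multi-overlapping reads were left out under the default settings. Groups came from the labels. The steady-state columns do not carry the labels' replicate numbers and were used as a group.

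Counts were analysed with edgeR 4.0.16 in R 4.3.3 (TMM, filterByExpr() by condition, all 13 libraries in 1 quasi-likelihood fit, common dispersion 0.177, Benjamini-Hochberg over 19984 genes). Standard errors are the size of the log2 fold change divided by the normal deviate of its p-value. Symbols and exons came from GENCODE M21 of GRCm38, and 53274 identifiers had a symbol. The steps were tested on simulated data. No library was a copy of another (closest pair 40.4 chi-square per degree of freedom). All 10 members were named in every comparison. From each list of related genes, at most 3 called rises and 3 called falls were named per comparison, with the 8 genes most like each member mean, of which 1 is not reported here. The members and lists were chosen with earlier results of these data known. The alternatives were DESeq2 1.42.0, RLE normalization, other filters, a fit of the compared conditions only, covariates, replicate blocks and each library left out. Plots were drawn with matplotlib 3.10.9 in Python 3.11.15.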

Additional observations from a re-analysis of the deposited data

Results flagged for a closer look

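At steady state, PBS day 1 replicate 2 lay far above the other 3 libraries in 4 of the 10 members, with a gap over the whole range above Dixon's 95% critical value for 4 samples. Fosb had 177 CPM in it, and 39.3 in the next highest library (ratio 0.895). Junb had 1432 CPM (next highest 530, ratio 0.924), Egr1 2250 CPM (next highest 760, ratio 0.930) and Ier2 568 CPM (next highest 296, ratio 0.864). Chance flags about 1 group in 20, which is 0.5 of 10, and the 10 genes share this library. The ratios of the other 6 members ran from 0.398 (Hspa1b) to 0.798 (Jun), with the same library highest.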

How the results depend on the processing

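No member was called against steady state in edgeR with the filter. Fos between days 7 and 4 kept its direction in all 21 alternatives and lost its call in 14. Under DESeq2, 1 member was called at day 4 and 3 at day 7 against steady state, 1 at day 7 against day 1 and 2 at day 7 against day 4, with 1354, 620, 1093, 935, 2912 and 1908 genes called in the 6 comparisons (days 1, 4 and 7 against steady state, day 4 against day 1, day 7 against days 1 and 4). Without the filter, 1, 3 and 2 members were called at day 4 and day 7 against steady state and at day 7 against day 4, with 250, 627 and 1265 genes. With at least 10 counts in every library, 20 and 0 genes were called at days 4 and 7 against steady state, 880 at day 7 against day 1 and 355 against day 4, there with 0 members. With only the conditions compared, 228, 146 and 0 genes were called against steady state, 394 at day 7 against day 4, and 1 member at day 7 against day 1. With the tag family as a covariate, 1066, 33 and 0 genes were called against steady state, 163 at day 4 against day 1, and 0 members at day 7 against day 4. With the thymocyte score, 37 and 155 genes were called at days 4 and 7 against steady state, 337 and 11 at day 7 against days 1 and 4, the last with 0 members. The causes of these shifts were not tested.

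Deviations of same-numbered libraries had a mean correlation across genes of -0.67 (day 4 and day 1), -0.14 (day 7 and day 1) and 0.05 (day 7 and day 4). For libraries with different numbers it was 0.27, 0.089 and -0.043, in that order. In days 1 and 4 the number goes with the tag, so these values cannot show whether replicate numbers pair the samples. With the replicate block, 56, 640 and 0 genes were called at day 4 against day 1 and at day 7 against days 1 and 4, with 1 member (Fosb) against day 1 and 0 against day 4. The block by day and number of the column name, which left 1 residual degree of freedom, called 0 genes at days 1, 4 and 7 against steady state, and that by number alone, added after seeing the data, 209, 27 and 0. Under the first block Fosb (0.91) and Atf3 (0.43) turned at day 4 against steady state, and under the block by label number Egr1 (-0.091) at day 4 against day 1.

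Leaving out each library in turn called 252 to 797, 19 to 226 and 0 to 622 genes at days 1, 4 and 7 against steady state, 87 to 362 at day 4 against day 1, 472 to 2043 and 15 to 1507 at day 7 against days 1 and 4, with 0 to 1 and 0 to 3 members in the last 2. The counts were 280 and 274 at day 1 against steady state without PBS day 7 replicate 1 or 2, 97 and 220 at days 4 and 7 against steady state without PBS day 4 replicate 2, and, without day 7 replicate 1, 612 at day 1 against steady state, 304 at day 4 against day 1 and 1953 at day 7 against day 1. Of 49 log2 fold changes that turned, none had been called (lowest adjusted p 0.135), and 27 turned with a library left out. Without PBS day 1 replicate 2 these were Fos (0.091), Fosb (0.46), Egr1 (0.0089) and Nr4a1 (0.35) at day 1, and Fosb (0.97), Junb (0.31), Egr1 (0.27) and Ier2 (0.12) at day 4 against steady state. Nr4a1 turned there without PBS day 4 replicate 2 (-0.081). Without day 1 replicate 1, Junb (-0.14), Egr1 (-0.30) and Ier2 (-0.23) turned at day 4 and Hspa1a (-0.0040) and Hspa1b (-0.012) at day 7 against day 1. Without day 1 replicate 2, Atf3 (0.094) turned at day 4 and Ier2 (0.023) at day 7, and without replicate 3 Jun (0.024), Junb (0.12) and Ier2 (0.30) at day 7 against day 1. Without day 4 replicate 1, Junb (-0.15), Egr1 (-1.08) and Ier2 (-0.41) turned at day 4 against day 1, and Egr1 (0.38) and Ier2 (0.25) at day 7 against day 4. Jun turned at day 7 against day 4 without day 4 replicates 2 (-0.24) and 3 (-0.29) and day 7 replicate 3 (-0.17). On the other side, such values reached 0.81 for Egr1, -0.36 for Atf3 and 0.61 for Ier2 at day 4 against day 1, -0.95 for Jun, -0.66 for Junb, -0.55 for Ier2, 0.89 for Hspa1a and 0.81 for Hspa1b at day 7 against day 1, and 1.51 for Jun, -1.31 for Egr1 and -0.60 for Ier2 at day 7 against day 4.

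With the tag family, Hspa1b turned at day 7 against steady state (0.052), Jun (0.35), Atf3 (0.23) and Hspa1a (0.20) at day 4 against day 1, Jun (1.75), Junb (0.63), Egr1 (1.07) and Ier2 (0.87) at day 7 against day 1, and Junb (0.030), Egr1 (0.25) and Ier2 (0.29) at day 7 against day 4. With the thymocyte score, Nr4a1 (0.046) turned at day 1 and Junb (0.13) at day 4 against steady state, Egr1 (-0.10) and Hspa1a (0.15) at day 4 against day 1, and Hspa1a (-0.91, -1.06) and Hspa1b (-1.10, -0.62) at day 7 against days 1 and 4. All 80 mean levels moved by less than 1 SD under RLE or raw library totals.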
